A study of Mus musculus with 12 samples.

Results

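The stage effect is the change from progenitor to preadipocyte, averaged over 2 fat depots of newborn mice. It was taken as the mean of the perivascular preadipocyte and inguinal ICAM1+ preadipocyte groups minus the mean of the perivascular progenitor and inguinal DPP4+ progenitor groups, and it used all 12 libraries of the series. Each group held 3 libraries of bulk RNA from cells that had been sorted by flow cytometry. All mice were CD-1 pups of both sexes at 3 days of age, with no transgene, deletion or treatment named in the labels. Perivascular tissue was the aorta with the fat around it, and inguinal tissue was the subcutaneous white fat of the groin. A library number stands for 1 pool of mice in both depots, so that a replicate is a pool and not a single animal. The inguinal sort used the surface proteins DPP4 and ICAM1, whose genes are therefore no finding in that depot. The sources used here do not give the markers of the perivascular sort.

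White and brown adipocytes arise from fibroblast-like cells of the connective tissue. In the usual scheme, interstitial progenitors that carry DPP4, PI16 and CD55 are multipotent and give rise to committed preadipocytes, which switch on PPARG, the nuclear receptor that drives fat cell differentiation. PPARG works together with C/EBP factors and its partner RXR to turn on genes for fatty acid uptake and lipid storage. Perivascular fat around the aorta of the newborn mouse has a thermogenic, brown-like character, while inguinal fat is a white depot.

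Deposited counts per library summed to between 15614628 and 25674461. In the first 3 principal components, which took 68.5%, 14.9% and 9.80% of the variance among the top 500 genes by variability, libraries lay nearest to others of their own group. Library 1 of the perivascular progenitors, library 1 of the perivascular preadipocytes and library 2 of the DPP4+ progenitors stood apart from their groups for many genes. Beside a count of list members changed in both depots, the count without these 3 libraries is given where it moved by 2 or more. Pdgfra, the receptor gene that marks fibroblast-like adipose precursors, was read at 118 to 755 CPM (counts relative to library size, as scaled by the trimmed mean of M values, TMM) over the 12 libraries.

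Of 18855 genes tested, 6307 changed in the stage average at an adjusted p under 0.05, which is 33.5% of them. Higher in preadipocytes were 3241 genes (17.2%) and lower were 3066 (16.3%). When library totals replaced TMM as the scale, 79.5% of the called genes were higher in preadipocytes instead of 51.4%, and the median log2 change of all genes tested was 0.30 instead of 0.03. All changes below are on the TMM scale.

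An average can be carried by a single depot, so each depot's own step was tested in the same fit. The perivascular step called 3168 genes higher (16.8%) and 3030 lower (16.1%). The inguinal step called 1761 genes higher (9.34%) and 1623 lower (8.61%). Genes called in the same direction in both steps and in the average numbered 1241, of which 465 were higher in preadipocytes (2.47% of the genes tested) and 776 were lower (4.12%). These 1241 genes, here called shared genes, made up 19.7% of the calls in the average. A further 3034 genes called in the average were called in the perivascular step only, 1269 in the inguinal step only and 706 in neither. This split also rests on the spread taken from all 12 libraries. The steps went in opposite directions for 307 genes, and 57 of these still passed in the average. Shared genes numbered 2213 without the 3 libraries named above (789 higher, 1424 lower) and 2816 with limma-voom and library weights (1090 higher, 1726 lower). With library totals as the scale, 1398 were higher and 440 lower. For the genes named below, the shared call was recomputed under 21 alternatives: other scalings, count filters and tools, the mouse pool as a block, an additive model that tests only the average anew, each library left out in turn, and the 3 libraries left out together. Shares of all genes tested that were shared, 2.47% higher and 4.12% lower, are the background for the counts in each gene list. For list members that went in opposite directions, the background is 307 of the 18855 genes tested.

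**Figure D1:**
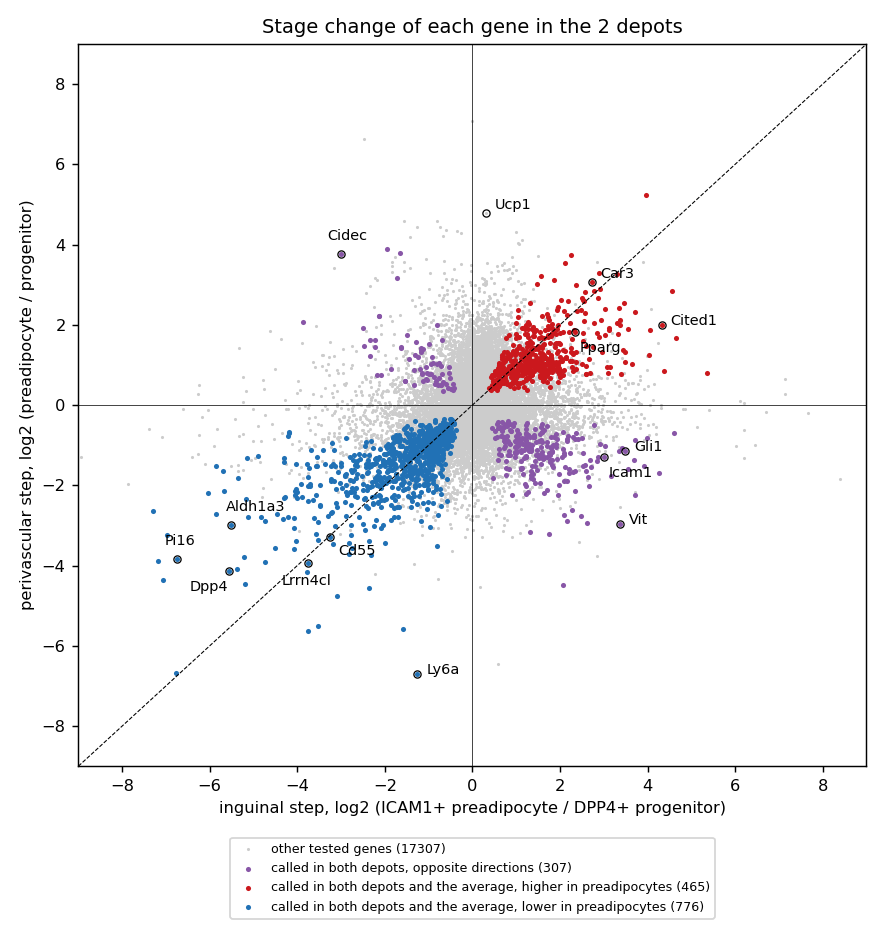
Each point is 1 of 18855 genes tested. The horizontal axis is the inguinal step and the vertical axis the perivascular step, both as log2 of preadipocyte over progenitor. Red and blue points are the 465 and 776 shared genes, purple points the 307 genes called in opposite directions, and the dashed line marks equal steps. Cd55 and Lrrn4cl lie on that line, while Ly6a, Icam1 and Ucp1 lie far from it.

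The shared genes that fell had like median changes in both depots, and those that rose had the larger median in the inguinal depot. Those that rose had a median log2 change of 1.06 in the perivascular step and 1.39 in the inguinal step, and those that fell had medians of -1.30 and -1.31. At least 2-fold changes in each depot were found for 228 genes that rose and 427 that fell. The difference between the steps was called for 158 of the 1241, against 15.0% of all genes tested. Of these, 54 rose, each of them more in the inguinal depot. Among those that fell, 69 fell further in the inguinal and 35 in the perivascular depot. For 467 shared genes the 95% interval of that difference lay within 1 log2 unit either way. In 453 of the 465 and 744 of the 776, all 3 libraries of one stage lay above all 3 of the other in both depots. Shared genes were chosen by calls in both steps in these same libraries. A gene with a large step in 1 depot and no call in the other was left out. The medians and the split of called differences by depot therefore only describe the genes chosen. The same holds for counts of 2-fold changes, narrow intervals and separate stages. No share over all genes tested stands beside the counts of 2-fold changes, narrow intervals and separate stages.

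Progenitor genes fell together in both depots. All 20 markers of interstitial progenitors on the list used here were lower in preadipocytes in both depots, where 4.12% of all genes tested were. Their median log2 change was -3.19 in the perivascular step and -3.10 in the inguinal step, beside -0.05 and 0.02 for all genes tested. The list was chosen with earlier results of these data known, and it includes Dpp4, which is no finding in the inguinal depot. Whether the perivascular sort used any member is not given in the sources used here. In bulk RNA, fewer progenitors in a sorted sample and less RNA per cell cannot be told apart. Values below are in CPM for libraries 1, 2 and 3, with progenitors before preadipocytes.

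Cd55, which encodes the complement regulator also called decay-accelerating factor and lies at chr1:130439027-130462744 of mm10, fell almost equally. Perivascular Cd55 went from 93.8, 85.7 and 92.6 to 8.50, 9.88 and 9.66. Inguinal Cd55 went from 1029, 935 and 1018 to 107, 114 and 90.8. The stages did not overlap in either depot, and the inguinal preadipocytes were at about the level of the perivascular progenitors. The log2 change averaged -3.27 (SE 0.104, adjusted p = 1.22e-09), with -3.28 in the perivascular step and -3.26 in the inguinal step. Their difference of -0.02 had a 95% interval from -0.42 to 0.38.

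Pi16, a secreted peptidase inhibitor gene that marks these progenitors (chr17:29317680-29330593), fell further in the inguinal depot. Perivascular Pi16 went from 743, 811 and 771 to 104, 36.8 and 21.6. Inguinal Pi16 went from 3106, 2702 and 2594 to 29.5, 26.8 and 22.5. Library 1 was the highest of the perivascular preadipocytes, but it too stood well below all progenitor libraries. The average was -5.29 (SE 0.343, adjusted p = 5.05e-07), and the step was 2.89 log2 units smaller in the perivascular depot (95% interval 1.63 to 4.16, adjusted p = 0.00666). Dpp4, which encodes the peptidase used to sort the inguinal progenitors, also fell where the labels name no sort for it. Perivascular Dpp4 went from 88.9, 97.2 and 82.1 to 5.41, 7.14 and 2.68, a log2 change of -4.13 (adjusted p = 5.67e-06).

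Ly6a, the gene of the stem cell antigen SCA1, fell in both depots by very different amounts. Perivascular Ly6a went from 558, 397 and 359.6 to 4.33, 3.23 and 4.99. Inguinal Ly6a went from 2072, 1694 and 2267 to 897, 813 and 816. The inguinal preadipocytes thus stayed above the perivascular progenitors. Their steps of -6.71 and -1.26 differed by -5.46 (95% interval -6.13 to -4.78, adjusted p = 3.14e-06). The sources used here do not say whether SCA1 was used in the perivascular sort, and the part of the sort in that fall was not tested.

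Several secreted signals belonged to the same group. Wnt2, a WNT ligand (chr6:17988940-18030585), went from 23.4, 19 and 20.3 to 2.51, 1.76 and 1.66 in the perivascular depot. Inguinal Wnt2 went from 425, 353 and 398 to 27.6, 23.6 and 20.6. The stages were separate in both depots, and the average was -3.71 (SE 0.136, adjusted p = 3.96e-09). Bmp7, a bone morphogenetic protein linked to brown fat, fell by 5.53 on the log2 scale in the average (SE 0.446, adjusted p = 3.18e-06). Its perivascular progenitor libraries were uneven, at 18.9, 4.20 and 3.79, all above 0.934 in the highest preadipocyte library. Akr1c18, a steroid-metabolising aldo-keto reductase, fell from 1396, 1153 and 1463 to 11.8, 10.3 and 7.86 in the inguinal depot. Perivascular Akr1c18 fell from the far lower 15.7, 9.33 and 8.60 to 0.639, 0.489 and 0.483. Smpd3, a neutral sphingomyelinase, and Opcml, a cell adhesion protein, fell too. In the average Smpd3 fell by 4.04 and Opcml fell by 3.13 on the log2 scale.

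The ranking of all shared genes by their smaller step brought up further genes outside that list. Lrrn4cl, which encodes a leucine-rich repeat membrane protein (chr19:8850768-8853909), fell by nearly the same factor in both depots. Perivascular Lrrn4cl went from 165, 133 and 146 to 9.0, 11 and 9.12. Inguinal Lrrn4cl went from 1816, 1696 and 1673 to 134, 133 and 120.0. As for Cd55, inguinal preadipocytes lay close to perivascular progenitors. The average of Lrrn4cl was -3.84 (SE 0.113, adjusted p = 6.08e-10) and the difference between depots -0.18 (95% interval -0.62 to 0.25).

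Scara5, a ferritin receptor gene (chr14:65666403-65764826), went from 483, 573 and 622 to 54.3, 51.6 and 34.3 in the perivascular depot. Inguinal Scara5 went from 1419, 1428 and 1300.2 to 74.4, 87.8 and 84.3. The stages were far apart in both depots, with inguinal libraries the higher at each stage, and the average was -3.83 (SE 0.143, adjusted p = 4.49e-09). Aldh1a3, which makes retinoic acid from retinaldehyde (chr7:66390890-66427517), fell in both depots with little scatter. Perivascular Aldh1a3 went from 47.7, 55.2 and 52.1 to 5.85, 6.89 and 6.76. Inguinal Aldh1a3 went from 649.7, 629 and 679 to 13.7, 14.2 and 14.7. Its average was -4.25 (SE 0.0999, adjusted p = 1.14e-10), and the inguinal fall was 2.53 log2 units larger (95% interval 2.14 to 2.92, adjusted p = 7.66e-06).

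Krtdap and Cadm3 fell to near the limit of detection in perivascular preadipocytes. Krtdap, a gene best known from keratinocytes, read 12.8, 12 and 8.87 in perivascular progenitors and 0.197, 0.636 and 0.697 in the preadipocytes. In the inguinal depot it read 381, 309.6 and 420.3 and then 12.2, 8.63 and 9.72. The stages did not overlap, and the average was -4.82 (SE 0.212, adjusted p = 1.98e-08). Cadm3, a cell adhesion molecule, fell by 3.97 on the log2 scale (SE 0.276, adjusted p = 9.86e-07). Tek, which encodes the angiopoietin receptor TIE2, went from 97.3, 109.5 and 137 to 20.7, 13.5 and 8.58 in the perivascular depot. Inguinal Tek went from 707, 730.4 and 615 to 71.5, 75.2 and 86.6, and the average was -3.07 (SE 0.192, adjusted p = 3.7e-07). Tek is also on the endothelial list, whose defining members are given at the end.

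**Figure D2:**
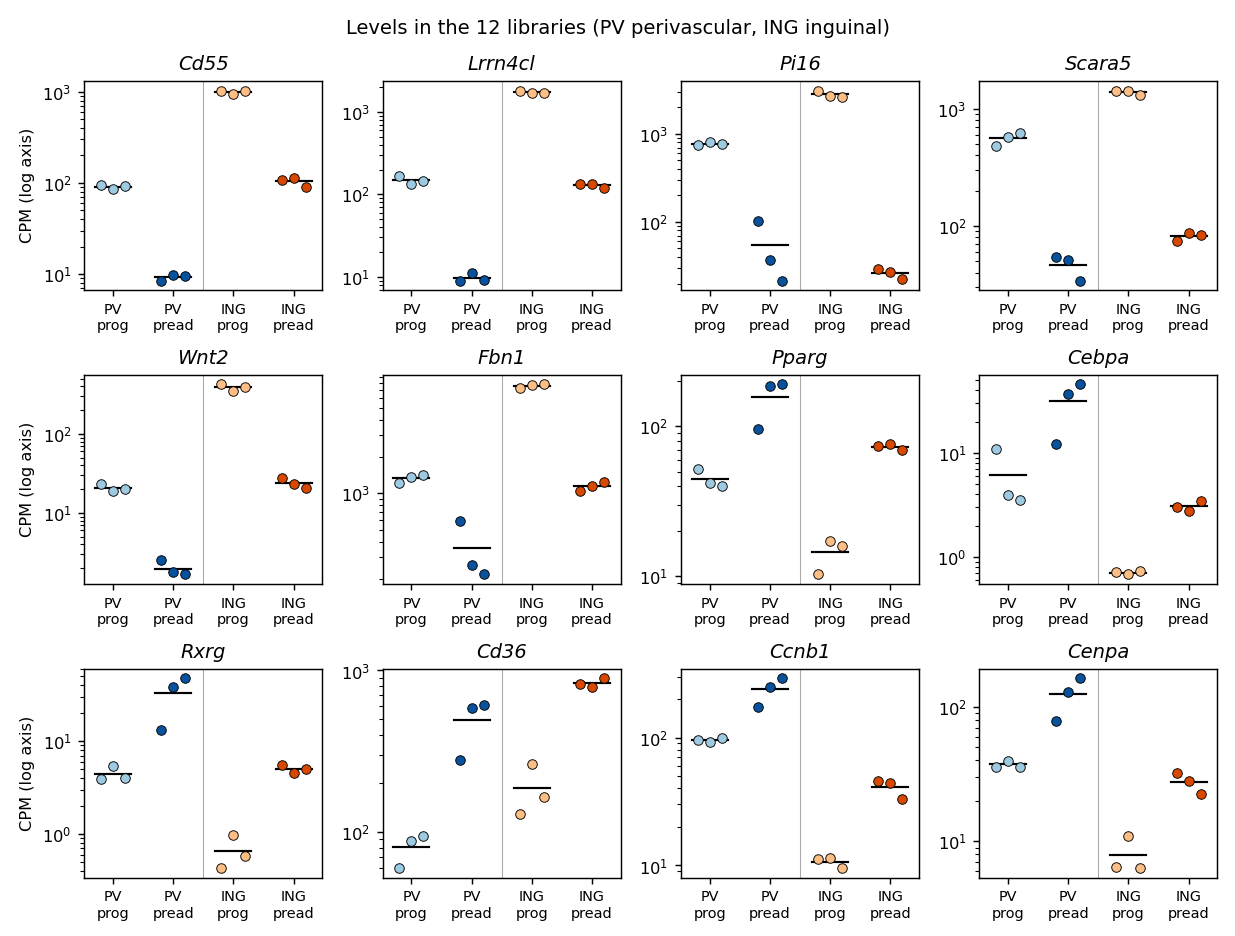
Points are single libraries, with CPM on a log axis and a bar at each group mean, for 12 shared genes. PV stands for perivascular, ING for inguinal, prog for progenitor and pread for preadipocyte. The upper row and Wnt2 and Fbn1 fall in both depots, while Pparg, Cebpa, Rxrg, Cd36, Ccnb1 and Cenpa rise; library 1 of the perivascular preadipocytes lies nearest its progenitors in most panels.

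Genes of the cell cycle rose in both depots. Of 28 mitosis genes, 27 were higher in both depots (25 without the 3 libraries), where 2.47% of all genes tested were, and 28 were higher in the average. Of 28 DNA replication genes, 19 were higher in both depots and 23 in the average, and no member of either list was called lower. The mitosis list had a median log2 change of 1.01 in the perivascular step and 1.77 in the inguinal step, and the replication list had 0.97 and 1.21. Mitosis genes are switched on late in the cycle and many carry CCAAT boxes and a cell cycle homology region (CHR, TTTGAA) in their promoters, where the MuvB complex and the factor NF-Y bind. Replication genes are switched on earlier, mostly through E2F factors.

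Promoter sequences of RefSeq on GRCm38.p6, which run from 250 bases before to 50 bases after each annotated start, are printed for 5 of these genes. The share of promoters with TTTGAA differed between the mitosis and the replication genes shared by both depots. These 5 alone do not show that difference, since Ccnb1 and Birc5 lack TTTGAA as Rrm2 does. Capitals mark CCAAT and TTTGAA on either strand, so that ATTGG and TTCAAA also count. Cenpa encodes the centromeric histone H3 variant (chr5:30666636-30666935, plus strand), Cdca8 the chromosomal passenger protein borealin (chr4:124936868-124937167, minus strand), and Ccnb1 cyclin B1 (chr13:100786437-100786736, minus strand). Birc5 encodes the chromosomal passenger survivin (chr11:117848987-117849286, plus strand). Rrm2, a replication gene, encodes a subunit of ribonucleotide reductase (chr12:24708004-24708303, plus strand).
Cenpa: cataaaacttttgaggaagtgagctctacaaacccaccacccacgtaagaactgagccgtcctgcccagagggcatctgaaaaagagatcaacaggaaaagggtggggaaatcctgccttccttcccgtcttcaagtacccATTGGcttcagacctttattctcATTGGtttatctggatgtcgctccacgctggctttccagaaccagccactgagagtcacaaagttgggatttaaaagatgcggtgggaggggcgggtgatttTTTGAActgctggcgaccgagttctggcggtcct
Cdca8: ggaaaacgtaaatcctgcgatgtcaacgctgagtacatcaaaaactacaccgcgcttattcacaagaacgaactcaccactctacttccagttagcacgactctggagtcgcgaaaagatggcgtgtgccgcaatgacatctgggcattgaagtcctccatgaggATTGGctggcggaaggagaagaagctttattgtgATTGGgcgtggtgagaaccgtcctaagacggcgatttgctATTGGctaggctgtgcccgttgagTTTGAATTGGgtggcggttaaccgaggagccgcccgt
Ccnb1: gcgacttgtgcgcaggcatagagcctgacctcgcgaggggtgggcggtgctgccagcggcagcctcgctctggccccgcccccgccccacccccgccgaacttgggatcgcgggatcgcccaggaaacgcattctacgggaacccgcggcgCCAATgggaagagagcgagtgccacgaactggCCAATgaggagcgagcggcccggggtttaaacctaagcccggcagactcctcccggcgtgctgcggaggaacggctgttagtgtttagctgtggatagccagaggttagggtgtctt
Birc5: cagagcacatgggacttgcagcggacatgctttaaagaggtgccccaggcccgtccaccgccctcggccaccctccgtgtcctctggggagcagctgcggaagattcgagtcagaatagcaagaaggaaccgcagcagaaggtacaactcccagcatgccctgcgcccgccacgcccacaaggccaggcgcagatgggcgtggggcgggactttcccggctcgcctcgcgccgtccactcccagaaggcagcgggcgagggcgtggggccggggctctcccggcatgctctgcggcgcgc
Rrm2: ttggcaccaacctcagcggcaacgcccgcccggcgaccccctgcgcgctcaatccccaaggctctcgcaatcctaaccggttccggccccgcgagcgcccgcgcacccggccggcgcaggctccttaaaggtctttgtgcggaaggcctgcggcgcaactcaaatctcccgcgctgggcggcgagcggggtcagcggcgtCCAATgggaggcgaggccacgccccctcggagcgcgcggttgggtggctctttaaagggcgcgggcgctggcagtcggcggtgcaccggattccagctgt

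Cenpa held 2 CCAAT and 1 TTTGAA, Cdca8 4 and 1 with the last pair overlapping, Ccnb1 2 CCAAT only, Rrm2 1 CCAAT only, and Birc5 neither in this window. Among 23 promoters of 22 shared mitosis genes, 20 held CCAAT and 17 held TTTGAA, and all 17 held both. Among 17 promoters of 15 shared replication genes, 12 held CCAAT and 2 held TTTGAA. Over 15154 promoters of all genes tested, 37.3% held CCAAT, 12.3% TTTGAA and 4.86% both. The 386 promoters of shared genes that rose outside these 2 lists had 42.5%, 19.4% and 12.2%. Promoters of the 776 shared genes that fell had 35.9%, 10.4% and 3.47%. The 20 promoters found for interstitial progenitor markers had 35%, 10% and 5%. A match describes letters in this window and not a bound site.

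Ccnb1 went from 96.0, 92.5 and 99.9 to 172, 249.6 and 292 in the perivascular depot. Inguinal Ccnb1 went from 11.3, 11.4 and 9.51 to 46.1, 44.5 and 33.2. The stages were separate in both depots, and the inguinal preadipocytes remained below the perivascular progenitors. Its average was 1.62 (SE 0.139, adjusted p = 5.2e-06). Cenpa went from 36.0, 39.9 and 36.0 to 78.6, 129.7 and 163, and in the inguinal depot from 6.50, 10.9 and 6.32 to 32.4, 28.2 and 22.4. The steps of Cenpa, 1.73 and 1.80, differed by -0.07 (95% interval -0.88 to 0.74). Birc5, with neither motif in its window, rose by 1.85 in the average (SE 0.201, adjusted p = 3.13e-05), close to Cdca8 at 1.72 (SE 0.154, adjusted p = 6.87e-06).

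Ccna2, the cyclin A2 gene, rose by 1.98 in the average (SE 0.286, adjusted p = 0.000287), with 12.5% of its exon bases shared with Exosc9. Its perivascular progenitors read 65.1, 26.5 and 24.1 and the preadipocytes 117, 171 and 174, so that library 1 stood apart on both sides without overlap. Mki67, the proliferation marker Ki-67, went from 42.0, 69.9 and 70.7 to 77.2, 112 and 121 in the perivascular depot. Inguinal Mki67 went from 9.64, 16.2 and 10.3 to 50, 48.1 and 44.3. Both steps passed, at 0.76 and 1.98, but Mki67 was no longer called in both depots when any of 4 perivascular libraries was left out (libraries 1 and 2 of the progenitors, 2 and 3 of the preadipocytes). Its rise was 1.22 log2 units smaller in the perivascular depot (95% interval of the difference -1.98 to -0.46, adjusted p = 0.0355).

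Replication genes are shown by Rrm2. It went from 109.7, 128 and 134 to 259, 459 and 489.6 in the perivascular depot and from 24.3, 22.3 and 19.2 to 61.9, 71.7 and 61.9 in the inguinal depot. Its average was 1.64 (SE 0.152, adjusted p = 9.67e-06) and the depots differed by 0.13 (95% interval -0.52 to 0.78). Tk1, the thymidine kinase of S phase, rose by 1.70 (SE 0.175, adjusted p = 2.09e-05). Gins1, part of the replicative helicase, and Cdt1, a licensing factor, rose by 1.68 and 1.36. Ccne1, the cyclin E1 gene, rose by 1.55, but was not called in both depots with the mouse pool as a block, without library 2 of the perivascular preadipocytes or without any 1 of the 6 inguinal libraries.

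Regulators of fat cell differentiation came next. Of 20 pro-adipogenic transcription factors, 4 rose in both depots (Pparg, Cebpa, Rxrg and Nr1h3) and 2 fell in both (Zfp423 and Klf4), beside 2.47% and 4.12% of all genes. Without the 3 libraries 6 rose and 3 fell. The list median was 0.36 in the average. Pparg, at chr6:115360951-115490399, went from 52.2, 41.7 and 40.3 to 96.2, 187 and 191 in the perivascular depot. Inguinal Pparg went from 10.3, 17.2 and 15.8 to 73.7, 76.1 and 69.8. Preadipocytes lay above progenitors in every library of their depot, and library 1 was the lowest perivascular preadipocyte. The average was 2.08 (SE 0.184, adjusted p = 6.51e-06), and the steps of 1.82 and 2.34 differed by -0.52 (95% interval -1.29 to 0.25).

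Rxrg, which encodes the gamma form of the retinoid X receptor (chr1:167598384-167639623), went from 3.87, 5.35 and 4.0 to 13.1, 37.9 and 47.7. Inguinal Rxrg went from 0.429, 0.987 and 0.574 to 5.58, 4.57 and 4.99. Inguinal preadipocytes thus stood at the level of perivascular progenitors, and the steps were 2.90 and 2.91. The average was 2.91 (SE 0.311, adjusted p = 2.79e-05). Cebpa, the C/EBP-alpha gene (chr7:35119293-35121928), had an uneven perivascular group. Its progenitors read 11, 3.97 and 3.52 and its preadipocytes 12.1, 37.0 and 45.5, so that the 2 libraries numbered 1 nearly met. Inguinal Cebpa went from 0.714, 0.683 and 0.738 to 3.06, 2.75 and 3.44. The average was 2.23 (SE 0.378, adjusted p = 0.000904), and Cebpa, whose inguinal step had an adjusted p of 0.0264, was not called in both depots when any inguinal library was left out.

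Nr1h3, the liver X receptor alpha gene, rose by 1.03 (SE 0.152, adjusted p = 0.000347), and it too was not called in both depots when any inguinal library was left out. Zfp423, a zinc finger factor that marks preadipocyte commitment, fell instead. Perivascular Zfp423 went from 55.2, 76.6 and 73.6 to 49.4, 31.3 and 29.2, and inguinal Zfp423 from 90.4, 87.3 and 97.1 to 40.3, 43.3 and 34.6. The average was -1.06 (SE 0.143, adjusted p = 0.000172). Of 19 anti-adipogenic regulators tested, Wnt10b alone fell in both depots and none rose in both. Wnt10b, a WNT ligand that holds back adipogenesis, went from 20.1, 20.0 and 24.7 to 0.306, 0.116 and 0.103 in the inguinal depot. Perivascular Wnt10b was near the floor in both stages, from 2.12, 1.44 and 0.866 to 0.0983, 0.196 and 0.161.

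Cebpb and Ebf2 did not pass in the average. Cebpb, the early C/EBP-beta gene, scattered within the perivascular groups, with 33.8, 0.576 and 0.379 in progenitors and 2.16, 9.14 and 88.0 in preadipocytes. Its average was 0.84 (SE 1.05, adjusted p = 0.565) and was 3.10 (adjusted p = 0.0123) without library 1 of the progenitors, and other genes share 20.7% of its exon bases. Ebf2, a factor of brown fat precursors, read 189 to 306 in all perivascular libraries and 116 to 132 in all inguinal ones. Its average was -0.05 (SE 0.124, adjusted p = 0.806).

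Genes for fatty acid uptake and lipid storage split into a shared and an unshared part. Of 28 adipocyte and lipid droplet genes, 21 were higher in the average, where 17.2% of all genes tested were, and 1, Mgll, was lower. Higher in both depots, where 2.47% of all genes were, were 6: Plin1, Car3, Fabp4, Fabp5, Cd36 and Slc2a4. The perivascular step called 25 of the 28 higher and the inguinal step 7, with medians of 2.63 and 0.20. The count of 6 was 3 without library 1 of the DPP4+ progenitors, 3 without library 1 of the ICAM1+ preadipocytes, 10 when scaled by library totals and 11 without the 3 libraries named above.

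Cd36, the fatty acid translocase gene (chr5:17781690-17888801), rose in both depots. Perivascular Cd36 went from 59.6, 88.1 and 94.8 to 279.8, 583 and 608. Inguinal Cd36 went from 129, 265 and 164 to 826, 794 and 897. The stages did not overlap, the inguinal depot was the higher at both, and the average was 2.39 (SE 0.230, adjusted p = 1.24e-05). Car3, a carbonic anhydrase abundant in fat (chr3:14863512-14872523), went from 795, 911 and 898 to 3439, 8704 and 9738. Inguinal Car3 went from 15.9, 31.2 and 20.0 to 178, 157 and 109.8. Its average was 2.90 (SE 0.266, adjusted p = 8.31e-06), although inguinal preadipocytes stayed below perivascular progenitors.

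Slc2a4, which encodes the insulin-regulated glucose transporter GLUT4 (chr11:69942539-69948188), went from 8.41, 10.7 and 10.3 to 29.1, 51.7 and 39.7. Inguinal Slc2a4 went from 1.14, 4.02 and 2.38 to 11.4, 11.5 and 12.6. The average was 2.13 (SE 0.236, adjusted p = 3.51e-05). Trarg1, a protein of GLUT4 vesicles, rose by 2.10 (SE 0.330, adjusted p = 0.000516). Fabp4, the fatty acid binding protein of adipocytes, went from 237, 266 and 225 to 727, 2303 and 2856 in the perivascular depot. Inguinal Fabp4 went from 127, 268 and 221 to 619, 522 and 563. Fabp4 was not called in both depots without library 1 or 3 of either inguinal group. Plin1, the perilipin of the lipid droplet surface, rose by 2.82 (SE 0.362, adjusted p = 0.000114), but not in both depots without library 1 or 2 of the DPP4+ progenitors or library 1 of the ICAM1+ preadipocytes.

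Of 20 committed preadipocyte markers, 13 were higher in the average and 2 lower, and the list medians were -0.25 in the perivascular step and 1.90 in the inguinal step. Rising in both depots were 5, Pparg, Fabp4, Cd36, Apoe and Fabp5 (7 without the 3 libraries), Mfap5 fell in both, and 3 members went in opposite directions. The list includes Icam1, which is no finding in the inguinal depot, and it was not left out of these counts and medians. Apoe, the apolipoprotein E gene, went from 847, 518 and 409 to 1567, 2062 and 2569 in perivascular cells. Inguinal Apoe went from 112, 322 and 287 to 1917, 1707 and 1589.5, so that both depots ended near the same level. Its average was 2.33 (SE 0.264, adjusted p = 4.31e-05).

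Arxes1 and Arxes2 are neighbouring, nearly identical genes under PPARG control, so reads may be split between them. Arxes2 went from 54.5, 46.1 and 53.0 to 133, 237 and 297, and in the inguinal depot from 8.0, 9.34 and 11.2 to 80.5, 74.1 and 65.4. In the average Arxes1 rose by 2.88 (SE 0.212, adjusted p = 1.52e-06) and Arxes2 by 2.53 (SE 0.180, adjusted p = 1.13e-06). Cholesterol synthesis gave 3 shared genes of 20 that rose, Idi1, Fdft1 and Nsdhl, at 0.84, 0.58 and 0.83 in the average. Of these, Nsdhl was not called in both depots with the mouse pool as a block or without any 1 of 5 inguinal libraries, nor Fdft1, with 18.3% of its exon bases under another gene, without library 2 of the perivascular progenitors or of the ICAM1+ preadipocytes.

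Among other genes ranked highest for their smaller step was Prkar2b, a regulatory subunit of protein kinase A. It went from 39.5, 11.9 and 9.63 to 127, 366 and 318, and in the inguinal depot from 2.0, 2.66 and 1.64 to 11.4, 11.5 and 7.40. Library 1 was the highest perivascular progenitor and the lowest preadipocyte, and the average was 3.00 (SE 0.385, adjusted p = 0.000117). Prkar2b was not called in both depots without library 1 or 3 of the DPP4+ progenitors. Cited1, a transcriptional co-regulator linked to beige fat, went from 8.16, 8.46 and 5.79 to 15.6, 29.6 and 44.4. Inguinal Cited1 went from 1.57, 1.82 and 1.23 to 33.3, 27.4 and 32.6. Its inguinal rise was 2.33 log2 units larger (95% interval of the difference -3.33 to -1.32, adjusted p = 0.00611).

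Smoc1, a matricellular calcium-binding protein, went from 20.3, 14.6 and 12.3 to 45.5, 70.6 and 60.7. Inguinal Smoc1 went from 1.43, 1.29 and 1.64 to 18.7, 16.6 and 16.2, at about the level of perivascular progenitors. The average was 2.73 (SE 0.164, adjusted p = 2.53e-07). Nnat, an imprinted membrane protein gene, and Igsf21, an immunoglobulin superfamily gene, rose by 2.67 (SE 0.252) and 2.71 (SE 0.281). Reep6, which shapes the endoplasmic reticulum, rose by 2.60 (SE 0.237, adjusted p = 8.12e-06).

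**Figure D3:**
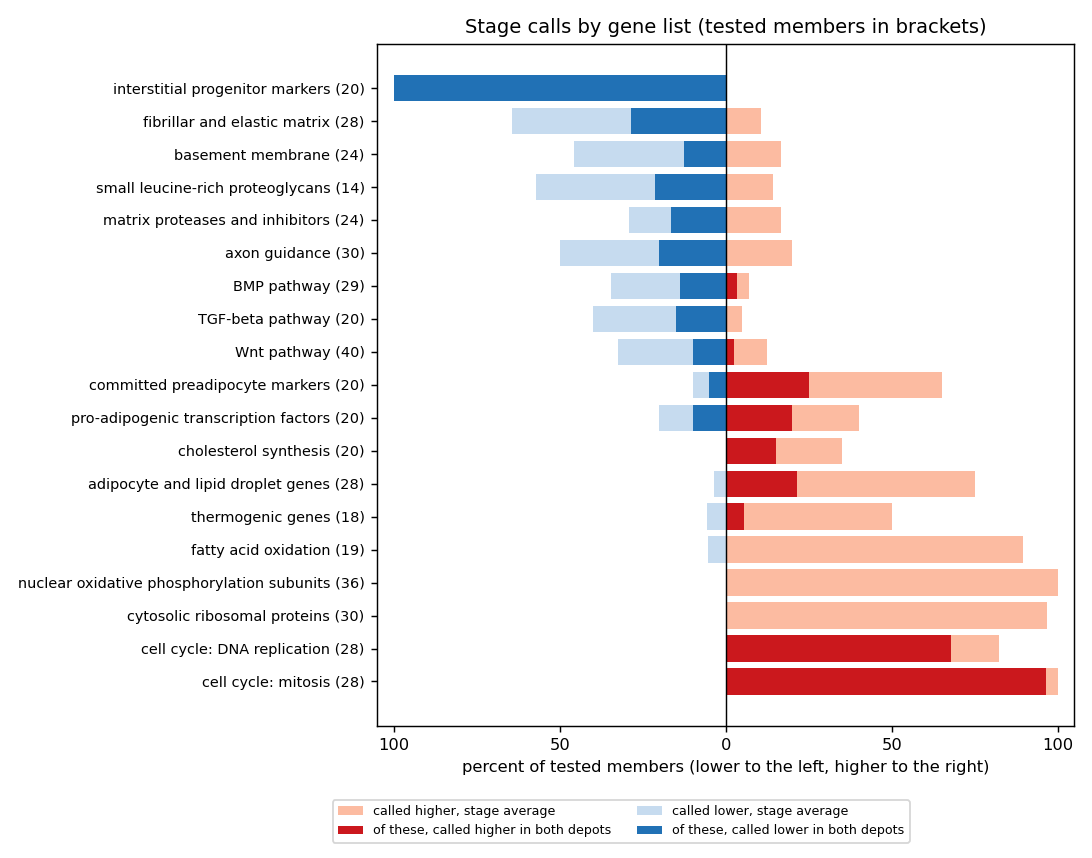
Bars give the percent of tested members called in the stage average (light) and called in both depots as well (dark), lower in preadipocytes to the left and higher to the right. Progenitor markers and mitosis genes are nearly all shared, while 36 of 36 oxidative phosphorylation subunits rise in the average and none in both depots.

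Many genes of the extracellular matrix fell. Of 28 fibrillar and elastic matrix genes, 18 fell in the average, where 16.3% of all genes tested did, and 3 rose. The inguinal step called 9 lower and 4 higher. In both depots 8 fell, where 4.12% of all genes did: Fbn1, Fn1, Fbln2, Col14a1, Mfap5, Fbn2, Emilin2 and Tnxb. The count of 8 was 14 without library 1 of the perivascular preadipocytes, 17 without the 3 libraries named above and 16 with limma-voom. Of all deposited counts, this list held 21.7% at the perivascular progenitor stage and 8.46% at the preadipocyte stage. Its inguinal shares were 31.1% and then 21.3%. Those shares move with the TMM factors and with the shift between scalings given above.

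Fn1, the fibronectin gene, went from 1423, 3159 and 2939 to 796, 419.9 and 325 in the perivascular depot. Inguinal Fn1 went from 17836, 19313 and 17289 to 3136, 3585 and 4332. The stages were separate in both depots, and the inguinal preadipocytes overlapped the upper end of the perivascular progenitors. The average was -2.29 (SE 0.255, adjusted p = 3.69e-05) and the depots differed by 0.01 (95% interval -1.04 to 1.07). Fbn1, the microfibril protein fibrillin-1, went from 1221, 1357 and 1411 to 589, 259 and 217. Inguinal Fbn1 went from 7265, 7721 and 7838 to 1048, 1152 and 1233, and 20.1% of its exon bases overlap another annotated gene. Its average was -2.32 (SE 0.221, adjusted p = 1.14e-05).

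Fbln2, a fibulin of elastic fibres, and Col14a1, a fibril-associated collagen, fell by 1.98 (SE 0.157) and 1.69 (SE 0.272). Mfap5, a microfibril protein that the preadipocyte list holds, fell by 1.88 (SE 0.202, adjusted p = 2.83e-05). Col1a1, the main chain of type I collagen, was not shared. Its perivascular step was -1.90 (adjusted p = 0.00731) and its inguinal step -0.78 (95% interval -1.73 to 0.16). Of 24 basement membrane genes 11 fell and 4 rose in the average, while the inguinal step called 4 lower and 6 higher. In both depots 3 fell (7 without the 3 libraries), where 4.12% of all genes did, and none rose in both. Among them Nid1 fell by 1.39 and Hspg2 fell by 1.06 in the average. Nid1 was not called in both depots with library totals as the scale or without library 1 or 2 of either inguinal group. Among 14 small leucine-rich proteoglycans 3 fell in both depots, Omd, Tsku and Prelp, and 7 did without the 3 libraries. The inguinal step called 4 of the 14 lower and 3 higher. Tsku was not called in both with library totals as the scale, without library 3 of the DPP4+ progenitors or without any 1 ICAM1+ preadipocyte library. Prelp kept its shared call in 9 of 21 alternatives and lost it with library totals as the scale, no count filter, the mouse pool as a block and without any 1 of 9 libraries.

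Of 22 collagen processing genes, 7 fell in the average, and Loxl4, a lysyl oxidase, and Pcolce2, a procollagen processing enhancer, fell in both depots. Loxl4 was not called in both without library 1 of the ICAM1+ preadipocytes, nor Pcolce2 without library 2 or 3 of the perivascular preadipocytes. Matrix proteases showed both patterns. Mmp2, the gelatinase that cleaves collagen, fell from 1404, 1439 and 1525 to 813, 599.6 and 499 in the perivascular depot and from 2714, 2465 and 2729 to 1052, 1169 and 1189.9 in the inguinal one. The steps of -1.19 and -1.21 differed by 0.02 (95% interval -0.53 to 0.57). Adamts5, an aggrecanase, and Adam33 fell by 1.68 (SE 0.164) and 0.96 (SE 0.103). Mmp3, the stromelysin, and Mmp19 instead fell in the perivascular step, by 1.36 and 1.08, and rose in the inguinal step, by 3.69 and 1.33. Other genes share 28.3% of the exon bases of Mmp19, so its values are uncertain.

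Of 40 Wnt pathway genes tested, 4 ligands fell in both depots (Wnt2, Wnt2b, Wnt9a and Wnt10b) and 1 rose (Wnt6), counts to be read beside 4.12% and 2.47% of all genes tested. Without the 3 libraries 8 fell. Wnt2b and Wnt9a fell by 2.31 (SE 0.291) and 1.77 (SE 0.242). Wnt6 was read at 2.02 CPM or less in every library, and it was not called in both depots with the mouse pool as a block or without any 1 of 4 perivascular libraries. Of 29 BMP pathway genes, Bmp7, Bmp4, Chrd and Fstl1 fell in both depots and Id1, a target of BMP signalling, rose in both. Id1 went from 53.1, 46.7 and 39.0 to 63.5, 87.1 and 121, and in the inguinal depot from 18.7, 22.9 and 22.1 to 54.7, 57.6 and 56.2. Its average was 1.19 (SE 0.148, adjusted p = 9.32e-05). Fstl1, a follistatin-like protein gene, was not called in both depots without any 1 of 5 libraries, 3 of them the ICAM1+ preadipocytes. Chrd encodes the BMP antagonist chordin and fell by 1.69 (SE 0.255, adjusted p = 0.000386). Bmp4 fell by 4.20 in the inguinal step and by 0.70 in the perivascular one. It kept its shared call in 11 of 21 alternatives and lost it with library totals as the scale, no count filter and without any 1 of 8 libraries.

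Of 20 TGF-beta pathway genes, 3 fell in both depots, where 4.12% of all genes did: Tgfbr2, Tgfbr3 and Ltbp1. The count was 6 without the 3 libraries, 7 with limma-voom and 1 with library totals as the scale. Tgfbr2, the type II receptor gene, went from 203, 233 and 258 to 150.0, 68.3 and 44.2. Inguinal Tgfbr2 went from 899, 972 and 911 to 328, 323 and 359.5, and the average was -1.43 (SE 0.232, adjusted p = 0.000661). Tgfbr3 was not called in both depots with library totals as the scale or without any 1 ICAM1+ preadipocyte library. Ltbp1 kept its shared call in 9 of 21 alternatives and lost it with library totals as the scale, the mouse pool as a block, without any 1 of the 6 inguinal libraries and without library 2 or 3 of either perivascular group.

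Of 13 Hedgehog pathway genes tested, Disp1, which releases the ligand from cells, fell in both depots, none rose in both and 3 went in opposite directions. Disp1 went from 26, 40.4 and 38.5 to 10.6, 10.5 and 7.67, and in the inguinal depot from 105.4, 96.1 and 96.3 to 23.8, 22.1 and 23.7. Its average was -1.98 (SE 0.131, adjusted p = 6.24e-07), and the steps differed by 0.23 (95% interval -0.32 to 0.78). Of 19 chemokine and cytokine genes tested, Cxcl10 alone rose in both depots, a call that was kept in 8 of 21 alternatives and not by DESeq2, limma-voom or without the 3 libraries, and 5 went in opposite directions.

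Of 23 IGF pathway and imprinted growth genes, 3 fell in both depots, Igfbp5, Igfbp6 and Grb10, beside 4.12% of all genes tested. None rose in both, and 3 did without the 3 libraries. Igfbp5, which binds insulin-like growth factors, went from 213, 444 and 443 to 35.1, 33.0 and 25.5. Inguinal Igfbp5 went from 803, 931 and 727 to 101, 115 and 151, with an average of -3.15 (SE 0.199, adjusted p = 4.14e-07). Igfbp6 fell by 2.37 (SE 0.134, adjusted p = 1.63e-07), and Grb10, an adaptor that restrains insulin signalling, by 1.54 (SE 0.181, adjusted p = 5.68e-05).

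Of 24 FGF and PDGF genes, Spry4, Dusp6 and Pdgfa rose in both depots and Fgf2 and Pdgfd fell in both. Spry4 and Dusp6 are feedback inhibitors of the ERK pathway. Spry4 went from 9.71, 13.6 and 15 to 18.1, 25.4 and 26.3, and in the inguinal depot from 7.36, 11.8 and 5.25 to 35.8, 33.8 and 35.3. With the mouse pool as a block, 1 of the 3 that rose kept both calls, and it was Spry4. Spry4 in turn lost its shared call without any 1 of 4 perivascular libraries. Pdgfa, with 26.1% of its exon bases under another gene, kept its shared call in 12 of 21 alternatives. Dusp6 kept it in 8, losing it with DESeq2's size factors in edgeR and without the 3 libraries as well. Pdgfd kept it in 14, losing it without any 1 of 6 libraries and with library totals as the scale. Fgf2, with 13.2% of its exon bases under another gene, fell by 1.31 (SE 0.151, adjusted p = 5.11e-05).

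Guidance and vessel signals also included shared genes. Of 30 axon guidance genes, 6 fell in both depots (Sema3a, Sema3b, Sema3c, Sema3d, Robo1 and Efna5), where 4.12% of all genes did, none rose in both, and 5 went in opposite directions. Both without the 3 libraries and with limma-voom 9 fell and 3 rose, and with library totals as the scale 6 fell and 2 rose. Sema3b was not called in both depots without library 2 of the perivascular preadipocytes. The class 3 semaphorins are secreted repellents. Sema3d went from 109.9, 144 and 169.5 to 29.6, 17.4 and 11.9, and in the inguinal depot from 500.5, 504 and 500.1 to 26.7, 23.9 and 24.9. Its average was -3.58 (SE 0.203, adjusted p = 1.69e-07). Sema3a fell by 2.28 (SE 0.167, adjusted p = 1.48e-06) with steps of -2.41 and -2.15.

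Angpt1 and Tek, ligand and receptor of one pathway, went opposite ways. Angpt1 rose from 2.99, 2.88 and 4.60 to 6.44, 9.34 and 7.46, and in the inguinal depot from 1.79, 3.49 and 1.97 to 15, 16.7 and 14.5. Its average was 1.91 (SE 0.20, adjusted p = 2.32e-05), with 14.2% of its exon bases under another gene. Pgf, a placental growth factor of the VEGF family, fell by 1.95 (SE 0.192, adjusted p = 1.41e-05). In the retinoid pathway Rbp4, which carries retinol in blood, rose by 1.27 (SE 0.150, adjusted p = 5.81e-05), beside the fall of Aldh1a3. Of 16 complement genes, Vtn and Cd59a rose in both depots and Cd55 fell in both, while 5 went in opposite directions. Cd59a was not called in both without library 2 of the perivascular progenitors or library 3 of the preadipocytes.

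The shared genes stood at different levels in the 2 depots. On the TMM scale, 409 of the 465 that rose (88.0%) had a higher mean in perivascular than in inguinal cells at both stages, against 36.6% of all genes tested. Of the 776 that fell, 665 (85.7%) had a higher mean in inguinal cells at both stages, against 31.5% of all genes tested. Genes called in the average but not in both depots had 64.6% and 66.3%. With library totals as the scale the shared genes gave 91.4% and 76.2%, against 54.0% and 16.7% of all genes tested. These shares are descriptions with no test, since the choice of genes and the order of the means rest on the same libraries.

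The commonest order among shared genes that rose, in 252 of 465, was perivascular preadipocytes above perivascular progenitors, then inguinal preadipocytes, then inguinal progenitors. Ccnb1, Car3 and Nnat had this order. Among those that fell the commonest, in 362 of 776, ran from inguinal progenitors down to perivascular progenitors, inguinal preadipocytes and perivascular preadipocytes. In another 303, including Igfbp6, inguinal preadipocytes still lay above perivascular progenitors.

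Some genes changed by almost exactly the same factor in both depots. Among the 6 with the smallest difference among strongly changed shared genes were Serpina3c, Plekho2, Pxn, Islr and Ap3m2, which fell. They were chosen by that difference, so its size is no finding, but its interval shows how well it is known. Serpina3c, a serine protease inhibitor, went from 19.8, 19.4 and 18.6 to 5.75, 5.62 and 5.95. Inguinal Serpina3c went from 80.8, 70.2 and 88.2 to 25.1, 24.5 and 22.3, with both steps at -1.74 and a 95% interval of the difference from -0.35 to 0.35. Islr, also called meflin, went from 782, 667 and 708 to 407, 276 and 198, and in the inguinal depot from 1226, 1126 and 1219 to 452, 497 and 514. Both its steps were -1.29, with an interval of the difference from -0.66 to 0.65. Pxn, the focal adhesion protein paxillin, had steps of -1.20 (-0.65 to 0.64). For Plekho2 the interval ran from -0.92 to 0.92.

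Some gene lists rose in the stage average mainly through the perivascular depot. All 36 nuclear-encoded subunits of oxidative phosphorylation were higher in the average, where 17.2% of all genes tested were, and none was higher in both depots. Their median step was 1.63 in the perivascular depot and 0.17 in the inguinal depot, and the difference between depots was called for 31. In the inguinal step edgeR called 0, and also 0 at an unadjusted p under 0.05. DESeq2 called 0 and limma-voom called 6 there. Cytosolic ribosomal proteins gave 29 of 30 higher in the average, medians of 1.17 and 0.23, and 0 inguinal calls (1 at an unadjusted p under 0.05, 0 with DESeq2, 3 with limma-voom). The difference between depots was called for 1 of these 30. Of 19 fatty acid oxidation genes tested, 17 were higher in the average and 18 in the perivascular step, and in the inguinal step 2 fell and none rose. No fatty acid oxidation gene was higher in both depots. The count was 5 with library totals as the scale, 3 with limma-voom, 3 without the 3 libraries and 1 with DESeq2. Library 1 of the perivascular preadipocytes was the lowest of its group in oxidative phosphorylation, with a centred list median of 0.45 log2 units against up to 1.87.

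**Figure D4:**
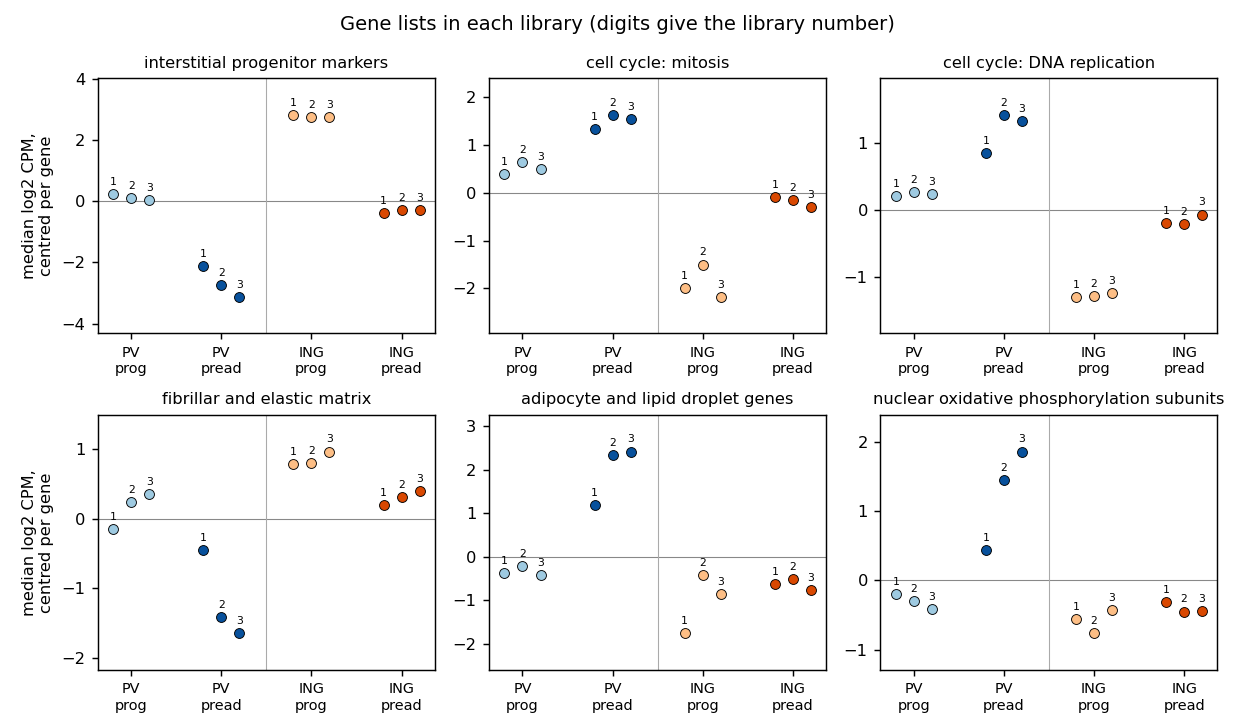
Each point is a library, placed at the median over a list of each gene's log2 CPM after subtracting that gene's mean over the 12 libraries; digits give the library number. Progenitor markers, mitosis and replication genes move the same way in both depots, whereas oxidative phosphorylation subunits lie between -0.77 and -0.20 in all groups but the perivascular preadipocytes.

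Ucp1, the uncoupling protein of brown fat, had a stage average carried by the perivascular depot. Perivascular Ucp1 went from 3.25, 5.53 and 8.66 to 64.8, 225 and 195. Inguinal Ucp1 stayed below 1 CPM, at 0.643, 0.228 and 0.656 and then 0.551, 0.658 and 0.668. The average of 2.55 (SE 0.415, adjusted p = 0.000683) combined steps of 4.80 and 0.31, which differed by 4.49 (95% interval 2.51 to 6.47, adjusted p = 0.00696). Adipoq, the adiponectin gene, had steps of 3.04 (adjusted p = 0.00273) and 0.49 (adjusted p = 0.634), and its DPP4+ progenitors were uneven at 3.79, 22.1 and 33.7. Of 18 thermogenic genes tested, Cox8b alone was higher in both depots, and its inguinal libraries all read 1.74 CPM or less. The count was 2 with library totals as the scale, with DESeq2, with limma-voom and with the mouse pool as a block. It was also 2 without the 3 libraries.

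Lpl, the lipoprotein lipase gene, and Acta2, smooth muscle actin, leaned the other way. Lpl read 1563, 1539 and 1485 and then 1539.5, 2391 and 2393 in perivascular cells, with overlap of the stages. Inguinal Lpl went from 723, 813 and 886 to 2779, 3039 and 3261. The inguinal step of 1.91 (adjusted p = 2.36e-05) exceeded the perivascular 0.46 by 1.44 (95% interval 0.87 to 2.02, adjusted p = 0.00394). Acta2 had steps of 0.83 (adjusted p = 0.0653) and 2.01 (adjusted p = 0.001), whose difference did not pass (adjusted p = 0.1).

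**Figure D5:**
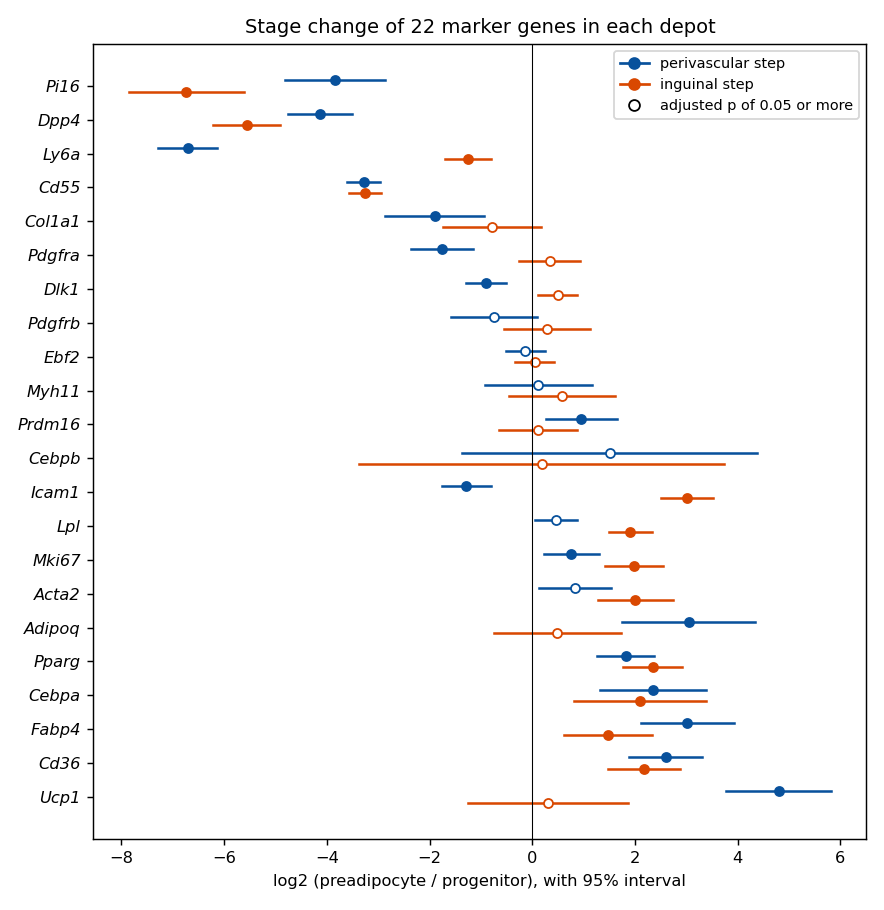
Points give each depot's log2 change from progenitor to preadipocyte with its 95% interval for 22 marker genes; open points did not pass at an adjusted p under 0.05. Cd55, Pparg, Cebpa and Cd36 have overlapping intervals in the 2 depots, whereas Ly6a, Icam1, Ucp1 and Lpl do not.

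Genes that went opposite ways can vanish from the average. Both steps were called in opposite directions for 69 genes that rose in perivascular and fell in inguinal cells, and for 238 that did the reverse. Icam1, used to sort the inguinal preadipocytes, fell in perivascular cells from 90.3, 102 and 95.4 to 52.9, 35.1 and 30.4, a change of -1.28 (adjusted p = 0.00143). Its average was nonetheless 0.86 through the sorted inguinal group, and 11.7% of its exon bases lie under another gene. Gli1, a target of Hedgehog signalling, fell by 1.14 in the perivascular step and rose by 3.50 in the inguinal step.

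Igf1, the growth factor itself, went from 929, 1090.1 and 1146 to 376, 371 and 352 in the perivascular depot. Inguinal Igf1 went the other way, from 194, 179 and 191 to 470.0, 483 and 495. Its average was -0.08 (SE 0.0921, adjusted p = 0.517), although neither depot's stages overlapped. Vit, the vitrin gene, Il33, an alarmin cytokine gene, Ms4a4d and Zim1 also fell in perivascular and rose in inguinal cells, by at least 1.88 and 1.97 log2 units. Scd1, which desaturates stearate, Thbs4, Tnfrsf21 and Ell2 rose in perivascular cells and fell in inguinal cells. Pdgfra fell in the perivascular step by 1.76 (adjusted p = 0.000927) and had an inguinal step of 0.34 (95% interval -0.25 to 0.93).

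Markers of other cell types were counted in the same way. Of 11 smooth muscle markers tested, Cnn1 and Actg2 rose in both depots and none fell, and the summed level was 297 to 432 CPM in perivascular progenitors and 405 to 602 in the preadipocytes. In the inguinal depot it was 199 to 360 and then 487 to 627. Actg2, gamma smooth muscle actin, rose by 2.15 (SE 0.244, adjusted p = 4.26e-05). Myh11, the defining smooth muscle myosin, had an average of 0.35 (SE 0.339, adjusted p = 0.454). Of 10 pericyte markers 4 were higher and 2 lower in the average, and the same held for the inguinal step. In both depots Mcam rose and Kcnj8 and Abcc9 fell. Rgs5 had means of 59.7 and 83.0 CPM in perivascular progenitors and preadipocytes and went from 25.9, 64.6 and 25.2 to 107, 120 and 130 CPM in the inguinal depot. Mcam and Kcnj8 were not called in both without library 2 of the perivascular preadipocytes, nor Abcc9 with library totals as the scale, the mouse pool as a block or without any 1 inguinal library. Pdgfrb had an average of -0.23 (adjusted p = 0.542).

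Of 14 endothelial markers, Tek alone fell in both depots and 6 fell in the average. The summed level was 261 to 413 and then 103 to 164 CPM in the perivascular depot, and 820 to 1068 and then 203 to 250 in the inguinal depot. Tek, whose values are given above, made up most of the sum in DPP4+ progenitors. Pecam1 and Cdh5, which define endothelium, lay at 13.1 to 53.8 and 1.52 to 16.9 CPM over the 12 libraries. Group means of Pecam1 went from 34.2 to 18.3 CPM in the perivascular depot and from 38.7 to 24.2 in the inguinal depot. Those of Cdh5 went from 3.97 to 2.03 and from 11.4 to 8.43. None of 16 haematopoietic markers was called in both depots, and their sum was 32.9 to 88.9, 41.1 to 60.4, 70.0 to 262 and 73.2 to 84.1 CPM in the 4 groups, perivascular first and progenitors before preadipocytes. In those groups mast cell markers summed to 9.24 to 12.8, 19.4 to 25.7, 78.6 to 331 and 71.2 to 119 CPM, with library 2 of the DPP4+ progenitors the highest in both lists. Msln and Upk3b, which define mesothelium, had means of 57.3 and 64.6 CPM in perivascular progenitors and 10 and 18.7 in the preadipocytes, and at most 1.37 and 1.79 in any inguinal library. Mesothelial markers summed to 221 to 354, 112 to 169, 53.5 to 67.8 and 123 to 136 CPM, with Cldn15 higher and Krt19 lower in both depots. No epithelial marker was called in both depots, and Krt5 was at 0 in all perivascular preadipocyte and DPP4+ progenitor libraries. Cnn1 was not called in both depots without any 1 perivascular progenitor library or library 2 of the preadipocytes. Krt19 was not with library totals as the scale, without library 3 of the DPP4+ progenitors or library 1 of the ICAM1+ preadipocytes. The part of these cells in the changes above was not tested.

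Among 24 early response genes, which tissue dissociation can induce, Ier3 alone fell in both depots, a share near the 4.12% of all genes tested, and none rose in both. Ier3 was not called in both with library totals as the scale or without any 1 of 3 inguinal libraries. Their summed level was 4100 to 6885 and then 4338 to 6800 CPM in the perivascular depot, and 7528 to 8768 and then 10377 to 11500 in the inguinal depot. Of the remaining 12 gene lists, with 170 members tested, none had more than 2 shared genes, 6 higher and 2 lower in all. Without the 3 libraries mitochondrially encoded genes had 5 that rose, up from 1, and genes of fatty acid and triglyceride synthesis had 3, up from 0. Hoxc8 and the Notch target Hey1 were among those that rose, by 0.83 (SE 0.107) and 0.89, and Hey1 was not shared without any 1 of 4 inguinal libraries.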

How the data were processed

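RNA from sorted cells was made into poly(A) cDNA libraries with SMART-Seq v4, per the labels' protocols. STAR 2.5.2a, DESeq2 1.26.0 and mm10 are named in the submitters' processing notes; for the counting tool, annotation and strand setting, the sources used here give nothing. The authors deposited raw read counts per gene for 31099 genes, of which 20387 carry a symbol; their normalized and rlog tables were not used. No column lacked a sample (0).

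Counts were fitted with edgeR 4.0.16 in R 4.3.3 (quasi-likelihood F test, TMM, filterByExpr with a minimum count of 10, 4 group means, no block). Tests were two-sided, with Benjamini-Hochberg adjustment over 18855 genes and calls at 0.05. The script was tested on simulated data. Log2 changes come with standard errors from the same fit, and CPM uses the TMM-scaled library sizes. Where the fold rests on libraries near 0 it depends on the prior count. Totals per library limit the precision for low genes. Gene positions and exon overlaps come from the mm10 annotation in the reference, and without a stated strand setting reads of overlapping genes cannot be told apart.

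Replicates are pools of mice. Same-numbered libraries share a pool per the labels, which pairs them; 5 of 18 same-numbered pairs correlated above 0.1 in their deviations from group means (mean -0.015, range -0.213 to 0.153), against a mean of 0.0087 for other pairs. The fit with the pool as a block was an alternative, as were other scalings, filters, DESeq2 1.42.0, limma-voom (limma 3.58.1), an additive model and leaving out libraries.

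Named genes were the 14 shared genes that rose most and the 14 that fell most by their smaller depot step, with at least 10 CPM and separate libraries, 22 markers, up to 5 shared and 2 opposite members of each list, 4 opposite genes of each pattern and the 6 most equal genes. The members and lists were chosen with earlier results of these data known. Some genes that this rule names are not reported here.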

Additional observations from a re-analysis of the deposited data

Results flagged for a closer look

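For the 36 genes below, the difference between the depots' steps itself passed in edgeR's quasi-likelihood test at an adjusted p under 0.05. Some of them were chosen because their steps were opposite, so that no share is read from this number. Values are the perivascular minus the inguinal log2 change.

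Progenitor and retinoid genes that fell in both depots fell further in the inguinal one, by 2.89 for Pi16, 2.70 for Akr1c18, 3.30 for Bmp7, 2.53 for Aldh1a3 and 1.47 for Sema3d. Ly6a fell further in the perivascular depot, whose sort markers are not given here, with -5.46. Wnt10b (3.75), Bmp4 (3.50), Efna5 (1.51), Pgf (1.24), Pcolce2 (2.07) and Kcnj8 (2.06) also fell further in the inguinal depot. Among the shared genes flagged here that rose, the inguinal rise was the larger. Values were -2.33 for Cited1, -1.65 for Smoc1, -1.22 for Mki67, -1.24 for Spry4, -1.52 for Angpt1 and -2.11 for Cldn15.

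The differences of Dpp4 (1.42) and Icam1 (-4.29) are no finding, since the inguinal cells were sorted on their proteins. The steps of Mmp3 (-5.05), Mmp19 (-2.41), Gli1 (-4.63), Zim1 (-4.00), Igf1 (-2.89), Il33 (-4.05), Vit (-6.35) and Ms4a4d (-3.97) were negative in the perivascular and positive in the inguinal depot, which is what those genes were chosen for. The reverse held, also by choice, for Scd1 (2.44), Thbs4 (5.45), Tnfrsf21 (3.94) and Ell2 (3.08). Called in 1 depot only were Adipoq (2.56) and Ucp1 (4.49), which rose in the perivascular depot, Pdgfra (-2.10), which fell there, and Lpl (-1.44), which rose in the inguinal depot.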

How the results depend on the processing

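Direction and threshold held for shared progenitor, mitosis and replication counts under all alternatives run, within 1.5 times. The same held for the count of oxidative phosphorylation subunits higher in the average. With 1 library left out at a time, genes called ranged from 4830 to 7924 in the average, 3916 to 8000 in the perivascular step, 2276 to 4292 in the inguinal step and 1666 to 5231 in the difference. Shared genes ranged from 845 to 1847 (325 to 663 higher, 520 to 1184 lower), the largest count of lower genes being without library 1 of the perivascular preadipocytes. Shared adipocyte genes ranged from 3 to 9, matrix genes from 8 to 14, mitosis genes from 20 to 27 and replication genes from 16 to 20. Of the 1241 shared genes, 629 were kept in every such fit.

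Library totals as the scale gave 5276 inguinal calls, 1398 higher and 440 lower shared genes and 10 shared adipocyte genes. Limma-voom gave 10505, 10914, 6052 and 8384 calls in the average, perivascular, inguinal and difference tests, 2816 shared genes (1090 higher, 1726 lower), 11 adipocyte and 16 matrix genes. Without the 3 libraries that stood apart there were 9893 perivascular and 7783 difference calls, 2213 shared genes (789 higher, 1424 lower), 11 adipocyte and 17 matrix genes. The additive model gave 4200 average calls, the perivascular libraries alone 2825, the inguinal libraries alone 5757, and a 2-fold minimum in each depot 655 shared genes. With the mouse pool as a replicate block, 1060 genes were shared, 83.3% of the 1241 were kept, and none of the counts named so far moved by over 1.5 times. Of the smaller lists, shared FGF and PDGF genes that rose went from 3 to 1, thermogenic genes that rose and retinoid genes that fell from 1 to 2, pericyte markers that fell from 2 to 1, and Wnt, mitochondrially encoded, interferon, MHC class I and cartilage genes that rose and glycolysis genes that fell from 1 to 0. Pdgfrb turned to 0.0323 and Ebf2 to 0.231 with library totals, and Ebf2 to 0.00905 with limma-voom. With 1 library left out at a time Ebf2 ranged from -0.14 to 0.0227 (without library 1 of the perivascular preadipocytes) and Cebpb from -0.43 (without library 3 of the perivascular preadipocytes) to 3.10. None of these averages was called with all libraries on the TMM scale. The cause was not tested. Depth limits genes near 1 CPM, such as Wnt6.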
